A study of Homo sapiens with 30 samples.

Results

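The clustered protocadherins are a family of cell-surface adhesion proteins whose genes lie side by side on human chromosome 5 in an alpha, a beta and a gamma cluster. The family was taken as all genes of the whole-cell count table with a PCDHA, PCDHB, PCDHGA, PCDHGB, PCDHGC or PCDHAC symbol followed by a number, with the same identifiers in the nuclear table. That gave 55 of 39126 listed genes, 16 in the alpha, 18 in the beta and 21 in the gamma cluster. PCDHA14, PCDHB17 and PCDHB18 are annotated as pseudogenes and the others as coding. A filter on low counts left 54 members in the whole-cell test, all but PCDHB1, and all 55 in the nuclear test.

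The cells were Hues6, a human embryonic stem cell line, either labelled QKI knockout (KO) or wild type (WT); QKI encodes an RNA-binding protein that controls splicing. Poly(A) RNA was sequenced from whole cells at day 0 (D0, pluripotent), day 4 (D4, cardiac progenitor stage) and day 8 (D8) of differentiation to cardiomyocytes, and from D8 nuclei, with 3 libraries per group. After D0, KO cells had been given 1.25 uM of the GSK3 inhibitor CHIR and WT cells 1.5 uM, both with 1.5 ng/mL BMP4 and then the WNT inhibitor C59, so genotype and CHIR dose cannot be told apart at D4 and D8. The submitters chose the doses by screening for differentiation efficiency. The series also holds 293T kidney cells given an siRNA against QKI or a control siRNA, which enter here through a splicing table alone. The labels do not say how the knockout was made, whether it is 1 clone, or whether the libraries of a group came from separate cultures, so p-values here cover no more than the spread among the libraries at hand.

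Whole-cell libraries held 40001076 to 89948185 counts and nuclear libraries 6549676 to 15030590. QKI RNA averaged 39.4 ± 3.34 counts per 1000000 (CPM) in KO and 293 ± 7.39 CPM in WT at D0 (SD, n = 3 each), and 78.2 ± 10.2 CPM in KO and 146 ± 8.87 CPM in WT at D4. At D8 it averaged 335 ± 5.30 CPM in the libraries labelled KO and 324 ± 41.9 CPM in WT, and in D8 nuclei 499 ± 30.6 CPM in the libraries labelled KO and 158 ± 24.7 CPM in WT. The targeted RNA was thus lower in KO at D0 and D4, did not differ in D8 whole cells (log2 fold change 0.05, edgeR adjusted p = 0.66) and was higher in D8 nuclei, so the D8 groups are called by their labels below. Cardiomyocyte markers (10 genes, such as TNNT2 and MYH6) summed to 34800 to 40300 CPM in the D8 libraries labelled KO and 12900 to 21900 CPM in WT, and pluripotency markers (8 genes, such as POU5F1 and NANOG) to 8290 to 8900 CPM in KO and 7610 to 7930 CPM in WT at D0.

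As background, each alpha and gamma gene starts with a large variable exon of its own, which encodes the extracellular cadherin repeats, the membrane span and part of the cytoplasmic tail, and is spliced to small constant exons that all genes of its cluster share. Beta genes are single variable exons with no constant part. In neurons each cell uses a few variable promoters, chosen at random, and the proteins pair with identical ones on other cells, by which a neuron tells its own branches from those of others. The genes PCDHAC1, PCDHAC2, PCDHGC3, PCDHGC4 and PCDHGC5, called C-type, are used more uniformly across neurons. Variable promoters carry a conserved sequence element with the core CGCT, and CTCF and cohesin bind at many of them and at distant enhancers of the locus; DNA methylation keeps unused promoters silent.

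The first constant exons show how alpha and gamma transcripts come to share sequence. In GENCODE v29 (build GRCh38), 15 alpha genes share one set and all 21 gamma genes another. Capitals mark bases that are the same at that position in both clusters, 39 of 59 (66.1%) in the first constant exon and 29 of 89 (32.6%) in the second.
Alpha constant exon 1, chr5:140978949-140979007, plus strand: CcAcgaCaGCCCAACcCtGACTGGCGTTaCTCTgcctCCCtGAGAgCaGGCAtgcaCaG
Gamma constant exon 1, chr5:141494807-141494865, plus strand: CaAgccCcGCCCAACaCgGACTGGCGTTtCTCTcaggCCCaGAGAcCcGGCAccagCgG
Alpha constant exon 2, chr5:140982475-140982563, plus strand: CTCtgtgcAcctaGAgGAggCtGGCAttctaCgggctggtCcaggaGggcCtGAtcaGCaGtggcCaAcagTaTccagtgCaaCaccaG
Gamma constant exon 2, chr5:141505393-141505481, plus strand: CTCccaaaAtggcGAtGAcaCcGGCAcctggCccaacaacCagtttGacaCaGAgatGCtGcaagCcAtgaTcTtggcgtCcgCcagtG
How the authors' counting treated reads in these shared exons, and reads that match several of these similar genes, is not stated in any source used here. Levels of single members are uncertain to that extent. In GENCODE v29 the single exon of PCDHA14 lies wholly inside an exon of PCDHA10, and 48% of the PCDHGB4 exon bases outside the constant exons also lie in PCDHGA8. Under these models reads of such pairs cannot be fully told apart. The counts were made on build hg19, and the gene models used for them may differ from these.

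The promoters of the members with the largest differences are shown as the 100 bases before the RefSeq start (build GRCh38.p14), on the plus strand, with each CGCT in capitals.
PCDHA10, chr5:140855797-140855896: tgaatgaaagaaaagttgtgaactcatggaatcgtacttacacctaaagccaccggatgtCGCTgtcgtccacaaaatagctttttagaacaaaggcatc
PCDHA11, chr5:140868857-140868956: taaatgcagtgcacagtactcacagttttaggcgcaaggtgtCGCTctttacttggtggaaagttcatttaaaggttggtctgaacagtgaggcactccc
PCDHB5, chr5:141135106-141135205: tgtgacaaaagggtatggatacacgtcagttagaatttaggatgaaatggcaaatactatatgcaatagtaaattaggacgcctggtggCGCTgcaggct
PCDHGA3, chr5:141343729-141343828: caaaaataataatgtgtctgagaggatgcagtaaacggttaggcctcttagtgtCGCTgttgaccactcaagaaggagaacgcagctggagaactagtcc
PCDHGA7, chr5:141382642-141382741: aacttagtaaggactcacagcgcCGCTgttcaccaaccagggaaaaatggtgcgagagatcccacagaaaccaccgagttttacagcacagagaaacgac
PCDHGB4, chr5:141387598-141387697: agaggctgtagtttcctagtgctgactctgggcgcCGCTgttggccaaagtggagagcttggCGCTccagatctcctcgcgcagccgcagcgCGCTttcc
PCDHGA10, chr5:141412887-141412986: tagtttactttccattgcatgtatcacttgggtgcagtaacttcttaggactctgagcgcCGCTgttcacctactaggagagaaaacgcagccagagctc
PCDHGC3, chr5:141475866-141475965: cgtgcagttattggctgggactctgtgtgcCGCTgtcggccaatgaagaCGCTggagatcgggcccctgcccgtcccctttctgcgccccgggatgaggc
RefSeq promoter windows of 300 bases, from 250 before to 50 after the start, were matched for 46 members, with 50 windows in all since 4 members have 2. CGCT on either strand stood in 49 of these windows (98%), and in 70% of the 35116 RefSeq promoters; the window without it is that of PCDHA9. On the sense strand within the last 100 bases before the start it stood in 43 windows (86%), and in 28.1% of all promoters. The letters CGCT were present both in members that were higher in KO, such as PCDHB5 and PCDHGB4, and in members that were lower, such as PCDHA11 and PCDHGA7. In PCDHB5 the match shown lay 11 bases before the start, and in PCDHA10 40 bases before it. Whether a given match belongs to the conserved element was not tested. A match is a description of letters and does not show that a factor binds there.

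Summed over its members, each cluster was given in CPM over library totals scaled by TMM (edgeR), with no test because the sum is over chosen members. The beta cluster was higher in KO in whole-cell RNA on every day. It summed to 91.7 to 101 CPM in KO and 41.5 to 43.5 CPM in WT at D0, to 118 to 137 CPM in KO and 68.1 to 75.6 CPM in WT at D4, and to 84.0 to 87.5 CPM in the libraries labelled KO and 59.7 to 63.2 CPM in WT at D8. No library of 1 genotype reached into the range of the other on any of these days. The log2 ratios of the means were 1.17 at D0, 0.82 at D4 and 0.49 at D8, and without PCDHB5, left out after the data were seen, they were 0.41, 0.28 and 0.16.

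The gamma cluster did not differ in its sum at D0 or D8 beyond the spread between libraries. It summed to 49.6 to 55.6 CPM in KO and 49.1 to 55.0 CPM in WT at D0, and to 87.3 to 90.4 CPM in the libraries labelled KO and 78.0 to 91.8 CPM in WT at D8. The ranges overlapped on both days. At D4 they did not, with 117 to 138 CPM in KO and 109 to 116 CPM in WT (log2 ratio 0.18). The sum at D8 joined opposite changes: without PCDHGB4 and PCDHGB7, left out after the data were seen, the gamma log2 ratio was -0.05 at D0, 0.05 at D4 and -0.87 at D8, against 0.02, 0.18 and 0.06 with them. The alpha cluster summed to 44.9 to 49.7 CPM in KO and 37.1 to 38.3 CPM in WT at D0, to 43.3 to 48.9 CPM in KO and 37.6 to 42.8 CPM in WT at D4, and to 37.9 to 41.0 CPM in the libraries labelled KO and 36.9 to 39.8 CPM in WT at D8. Its groups stood apart at D0 and D4 and overlapped at D8. Without PCDHA10 and PCDHA14, left out after the data were seen, the alpha log2 ratio was 0.16 at D0, -0.21 at D4 and -0.34 at D8, against 0.34, 0.20 and 0.06 with them.

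In D8 nuclei all 3 clusters were higher in the libraries labelled KO, with alpha at 143 to 156 CPM in those and 80.7 to 82.5 CPM in WT, beta at 134 to 152 CPM in those and 83.3 to 84.9 CPM in WT, and gamma at 161 to 169 CPM in those and 92.0 to 104 CPM in WT. The log2 ratios were 0.88, 0.75 and 0.78, and 0.44, 0.30 and 0.34 when libraries were scaled by their total counts alone. The gamma sum without PCDHGB4 and PCDHGB7 gave a log2 ratio of 0.04. Tested singly (below), 6 of 21 gamma members were higher, PCDHGA8, PCDHGA9, PCDHGB6 and PCDHGA11 among them, and 7 were lower. Genes under 0.1 CPM in D8 whole cells had a median nuclear mean of 1.33 CPM in the libraries labelled KO and 2.08 CPM in WT. How far such a background entered the nuclear sums was not tested. Without PCDHA10 and PCDHA14 the alpha ratio was 0.65, and without PCDHB5 the beta ratio was 0.63. Scaling moved the nuclear reference point more than in any whole-cell comparison between genotypes: the median log2 fold change over all genes was -0.27 with TMM and -0.71 with total counts. In whole cells it lay between -0.01 and 0.01 with TMM.

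**Figure D1:**
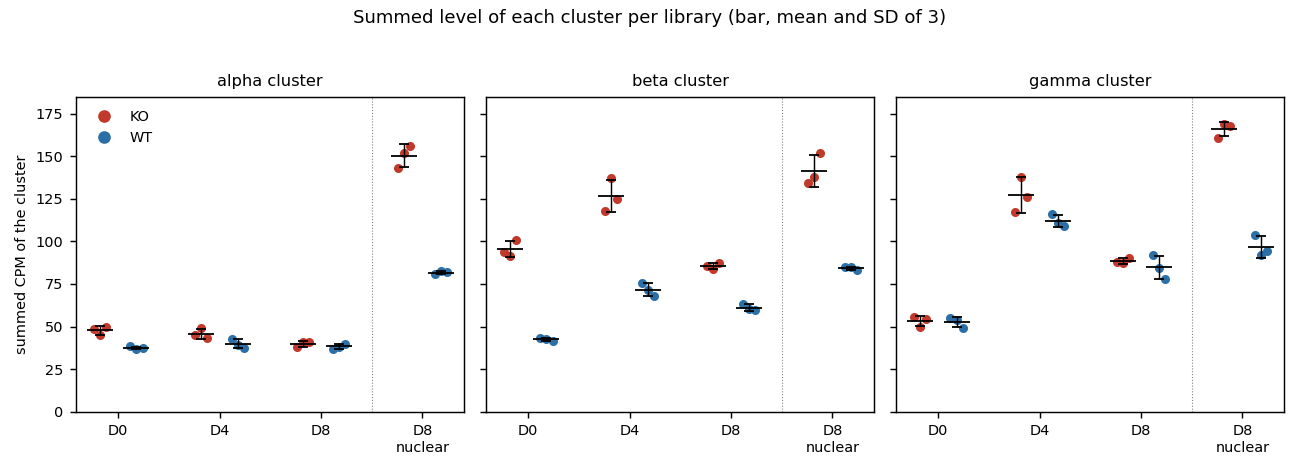
Summed CPM of the alpha, beta and gamma clusters (y axis) in each library at D0, D4 and D8 in whole cells and in D8 nuclei (x axis), KO in red to the left of WT in blue; dots are libraries, bars the mean and SD of 3. The beta sums stand apart on every day, from 91.7 to 101 CPM in KO and 41.5 to 43.5 CPM in WT at D0, while the gamma sums overlap at D0 and D8.

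Within a cluster, counts were concentrated in a few members, and which members these were differed between the genotypes. At D8, PCDHGB7, PCDHGB4 and PCDHGB6 together held 90.4% of the gamma counts in the libraries labelled KO, and the top 3 members in WT, which included PCDHGC3, held 69.2%. PCDHGB7 alone held 40.1 ± 1.5% in the libraries labelled KO and 25.9 ± 0.543% in WT (SD, n = 3 each). PCDHGC3, a C-type member, held 0.608 ± 0.146% in the libraries labelled KO and 17.6 ± 1.13% in WT. Of the 21 gamma members, 5 averaged at least 1 CPM in the libraries labelled KO and 9 did so in WT.

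In the beta cluster PCDHB5 held 50.7 ± 1.41% of the counts in KO and 16.8 ± 0.408% in WT at D0, 41.0 ± 0.503% in KO and 14.3 ± 0.964% in WT at D4, and 27.4 ± 0.252% in the libraries labelled KO and 9.27 ± 0.749% in WT at D8. In whole cells it held the largest share in KO on every day, and PCDHB2 did so in WT. In the alpha cluster PCDHA10 held 35.0 ± 1.64% of the counts in the D8 libraries labelled KO and 16.3 ± 0.338% in WT, where PCDHA4 held the largest share, 28.8 ± 1.24%. Shares depend on gene length as well as on RNA level. Per kilobase of exon not shared with another gene in GENCODE v29, PCDHB5 stood at 14.2 CPM per kb in KO and 2.09 in WT at D0, and PCDHB2 at 4.75 CPM per kb in KO and 3.97 in WT, so PCDHB5 was first of its cluster in KO and PCDHB2 in WT on this scale too. The PCDHA10 and PCDHA4 models include single exons of over 10 kb, so their values per kilobase depend on those models, which may differ from the ones used for counting. On this scale PCDHA12 was first of the alpha cluster at D8 in both genotypes, at 2.14 CPM per kb in the libraries labelled KO and 2.75 in WT. PCDHA10 stood at 1.4 in the libraries labelled KO and 0.624 in WT, and PCDHA4 at 0.791 and 1.04. The leading alpha member at D8 thus did not differ between the genotypes per kilobase.

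**Figure D2:**
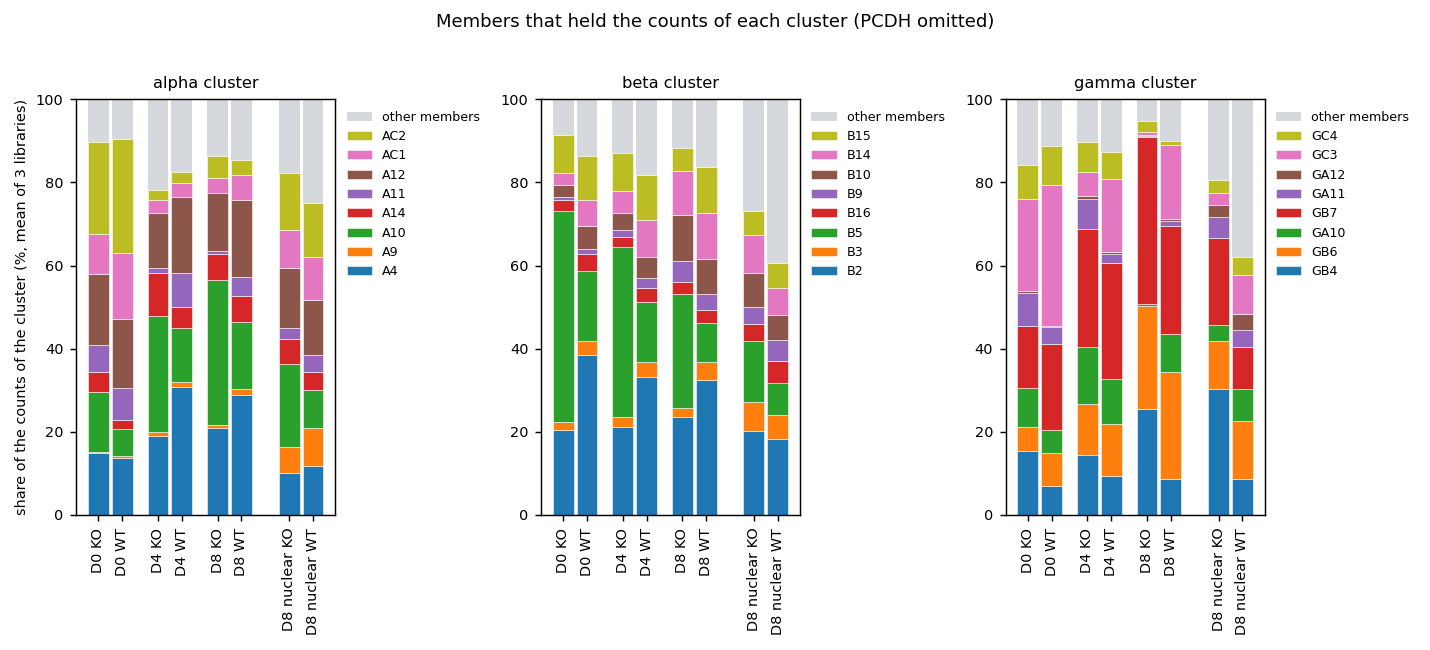
Share of the counts of each cluster (y axis, percent, mean of 3 libraries) held by its 8 leading members, by group (x axis, KO left of WT); grey is all other members. PCDHB5 holds 50.7% of the beta counts in KO and 16.8% in WT at D0, and PCDHGC3 holds 0.608% of the gamma counts in the D8 libraries labelled KO and 17.6% in WT.

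Single members were tested with edgeR's quasi-likelihood test over all genes, with a call wherever p stayed below 0.05 after Benjamini-Hochberg adjustment; every adjusted p below comes from that test. At D0, 22 of the 54 members tested were higher in KO and 5 were lower. Of all 21761 genes 42.3% were called in this comparison, 21.4% higher and 20.9% lower, and of the members 50% were called, 40.7% higher and 9.26% lower. The median log2 fold change was 0.48 over the members and -0.01 over all genes. The beta cluster had 8 of 17 members higher and 0 lower, the alpha cluster 6 higher and 1 lower of 16, and the gamma cluster 8 higher and 4 lower of 21. Of the cell type markers at D0, those of pluripotency had 2 higher and 1 lower of 8. Endoderm markers were low, with sums of 5.71 to 6.33 CPM in KO and 0.792 to 1.45 CPM in WT. Cardiomyocyte markers summed to 27.6 to 29.2 CPM in KO and 16.1 to 17.9 CPM in WT. Surface ectoderm and amnion markers summed to 31.9 to 33.2 CPM in KO and 49.3 to 56.0 CPM in WT. That sum rested on few genes, since 5 of the 8 averaged under 1 CPM in each genotype. By total counts 1 of the 8 was higher and 2 lower, at a median log2 fold change of 0.57. Neural sums overlapped, at 58.7 to 61.1 CPM in KO and 58.2 to 61.1 CPM in WT. Fibroblast and epicardium markers had 2 of 7 higher, with sums of 133 to 155 CPM in KO and 72.4 to 85.8 CPM in WT. Endothelial markers had 3 of 5 higher, with sums of 294 to 329 CPM in KO and 209 to 231 CPM in WT.

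At D4, 12 members were higher in KO and 4 lower, which is 29.6% of the 54 and near the 28.4% of all genes called, of which 16.3% of genes were higher and 12% lower. The beta cluster had 5 higher and 0 lower, the alpha cluster 4 higher and 2 lower, and the gamma cluster 3 higher and 2 lower. Cell type markers moved with the D4 comparison, in both directions. Pluripotency markers summed to 1950 to 1960 CPM in KO and 2230 to 2410 CPM in WT. Cardiomyocyte markers summed to 245 to 381 CPM in KO and 202 to 236 CPM in WT. Those of surface ectoderm and amnion summed to 150 to 155 CPM in KO and 103 to 144 CPM in WT. By total counts 4 of these 8 were lower and 1 higher. Fibroblast and epicardium markers overlapped, at 688 to 960 CPM in KO and 653 to 811 CPM in WT. Endoderm markers summed to 202 to 221 CPM in KO and 77.3 to 86.2 CPM in WT (5 of 6 higher). Endothelial markers summed to 395 to 441 CPM in KO and 193 to 228 CPM in WT (4 of 5 higher). Neural markers summed to 167 to 177 CPM in KO and 107 to 114 CPM in WT (3 higher and 2 lower of 8 tested). Most of the neural sum was OTX2, which the early embryo also uses, at 155 CPM in KO and 97.7 CPM in WT.

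At D8 the libraries labelled KO had 14 members higher and 20 lower, which is 63% of those tested; 55.6% of all genes were called, 29.4% higher and 26.2% lower. The lower members were mostly gamma and alpha ones, with 9 lower and 3 higher of 21 gamma members and 7 lower and 3 higher of 16 alpha members, while the beta cluster had 8 higher and 4 lower of 17. Lower by at least 2-fold were 11 members, of which 9 were gamma genes; of all genes 10.2% were called and lower by that much. Scaled by total counts alone, 12 members were higher and 25 lower at D8. Of all genes called, 37.6% were then higher, and 52.9% with TMM.

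In D8 nuclei the libraries labelled KO had 21 of 55 members higher and 8 lower, which is 52.7% of the members and less than the 64% of all 30481 genes called, with 31.2% higher and 32.9% lower. The alpha cluster had 7 higher and 0 lower, the beta cluster 8 higher and 1 lower, and the gamma cluster 6 higher and 7 lower. Genes under 0.1 CPM in D8 whole cells had a median nuclear log2 fold change of -0.8. Of the 8 lower members, PCDHB1 (-0.77), PCDHGA1 (-0.73), PCDHGA2 (-0.83) and PCDHGA5 (-0.72) lay near that value. The others, PCDHGC3, PCDHGA7, PCDHGB3 and PCDHGA3, ran from -1.0 to -1.26. Whether any of these falls exceeds that background was not tested. The split of higher and lower members moved with the scaling: by total counts 12 members were higher and 12 lower. Of all genes called, 26.3% were higher under that scaling and 48.7% with TMM. Cell type markers moved with this comparison as well. Cardiomyocyte markers summed to 16700 to 19500 CPM in the libraries labelled KO and 4390 to 5680 CPM in WT (10 of 10 higher). Endoderm markers summed to 187 to 480 CPM in the libraries labelled KO and 17.7 to 21.3 CPM in WT (5 of 6 higher and 1 lower). Endothelial markers summed to 436 to 482 CPM in the libraries labelled KO and 69.6 to 75.1 CPM in WT, with 1 higher and 4 lower of 5. The higher endothelial sum thus rested on 1 gene, and most of that list went the other way. Neural markers summed to 77.8 to 87.8 CPM in the libraries labelled KO and 72.9 to 83.3 CPM in WT. By total counts 1 of these 11 was higher and 7 lower. Surface ectoderm and amnion markers summed to 157 to 409 CPM in nuclei labelled KO and 497 to 790 CPM in WT. Pluripotency markers summed to 107 to 138 CPM in nuclei labelled KO and 133 to 160 CPM in WT. Fibroblast and epicardium sums overlapped, at 1310 to 3040 CPM in nuclei labelled KO and 1260 to 2050 CPM in WT. By total counts these lists had 0 higher and 7 lower of 8, 1 and 6 of 8, and 1 and 5 of 7.

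**Figure D3:**
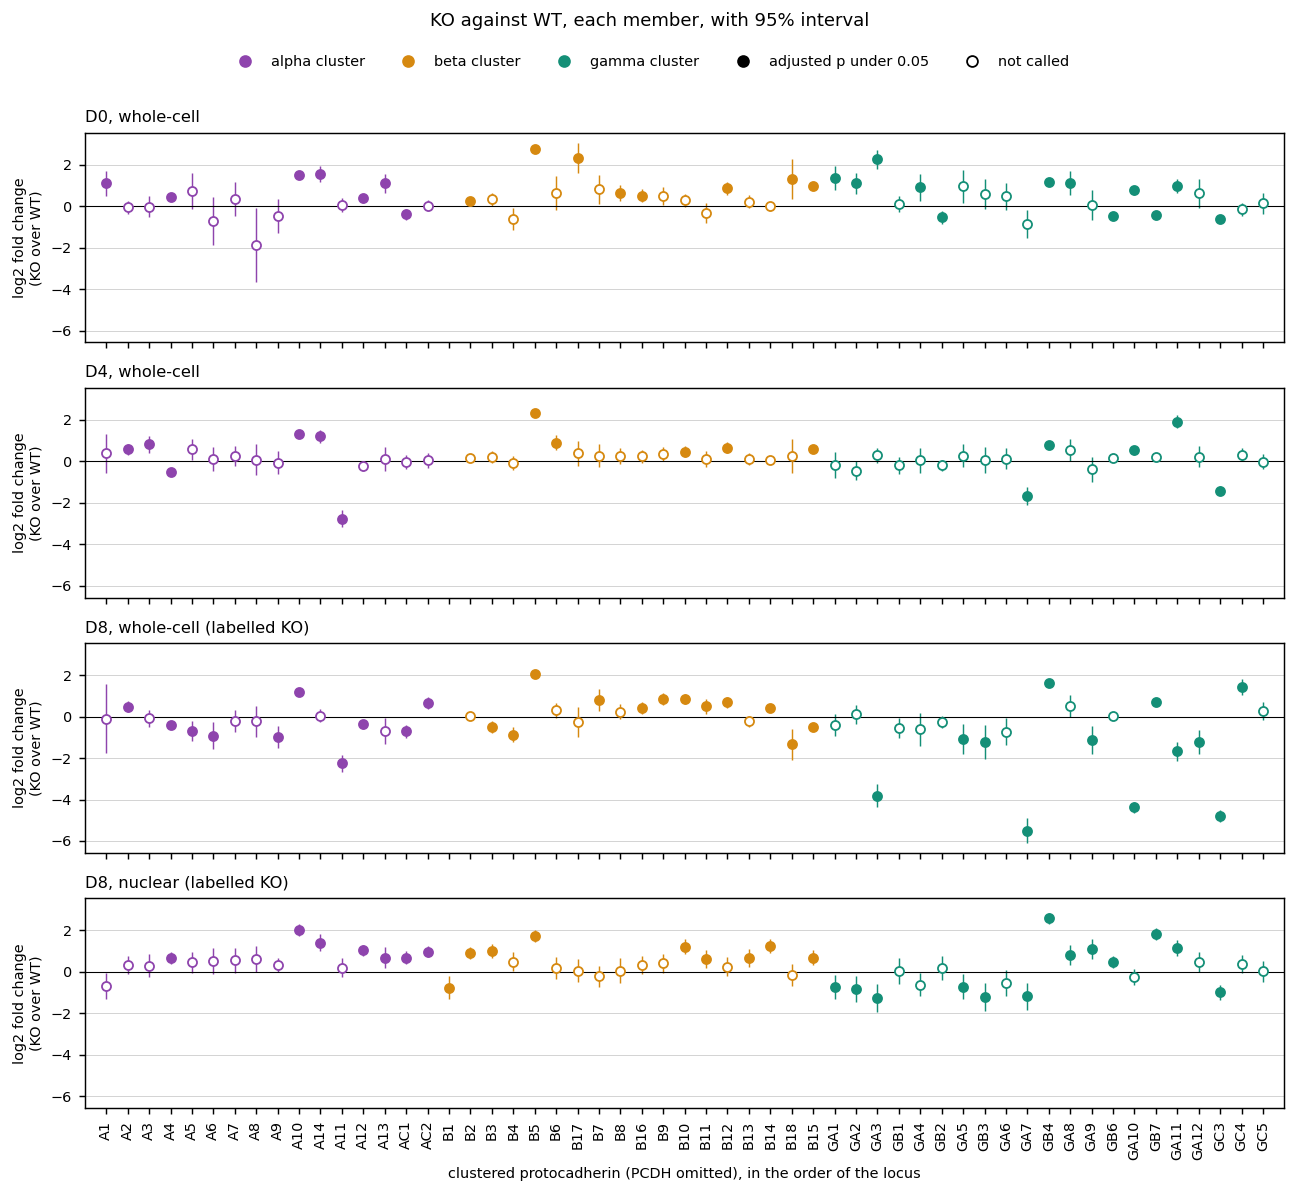
Log2 fold change of KO over WT (y axis, with 95% interval) for each member tested, in the order of the locus (x axis), at D0, D4 and D8 in whole cells and in D8 nuclei; filled dots were called below an adjusted p of 0.05, colours mark the cluster. PCDHB5 lies above 1.70 in every panel, and at D8 in whole cells PCDHGA3, PCDHGA7, PCDHGA10 and PCDHGC3 lie at -3.82 or lower.

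PCDHB5 (ENSG00000113209.6), a beta protocadherin, had the largest rise of the family at D0, D4 and D8. It stood at 48.8, 45.1 and 51.3 CPM in KO, against 7.22, 7.00 and 7.14 CPM in WT at D0. At D4 it stood at 47.7, 56.0 and 52.0 CPM in KO, against 11.4, 10.5 and 9.02 CPM in WT. At D8 it stood at 23.3, 23.3 and 23.8 CPM in the libraries labelled KO, against 5.49, 6.12 and 5.38 CPM in WT. Every KO library lay above every WT library by several times on each day. The log2 fold change was 2.76 at D0 (SE 0.09, adjusted p = 3.5e-15), 2.33 at D4 (SE 0.08, adjusted p = 2.5e-13) and 2.05 at D8 (SE 0.09, adjusted p = 9.4e-14). In nuclei PCDHB5 averaged 20.9 CPM in the libraries labelled KO and 6.40 CPM in WT (log2 fold change 1.71, SE 0.15, adjusted p = 9e-11).

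The rest of the beta cluster moved less. PCDHB12 was higher on all 3 days, at 2.63 CPM in KO and 1.45 CPM in WT at D0, 3.41 CPM in KO and 2.14 CPM in WT at D4, and 2.04 CPM in the libraries labelled KO and 1.26 CPM in WT at D8, with log2 fold changes of 0.86, 0.67 and 0.69. PCDHB15 changed its direction, at 8.75 CPM in KO and 4.46 CPM in WT at D0, 11.8 CPM in KO and 7.76 CPM in WT at D4, and 4.84 CPM in the libraries labelled KO and 6.74 CPM in WT at D8. Its log2 fold changes of 0.97, 0.60 and -0.48 were all called. PCDHB2, the member with the largest share of the beta counts in WT, was at 19.6 CPM in KO and 16.4 CPM in WT at D0 (log2 fold change 0.25, adjusted p = 0.019) and at 20.1 CPM in the libraries labelled KO and 19.8 CPM in WT at D8 (log2 fold change 0.02, 95% interval -0.14 to 0.18). The 2 beta pseudogenes were low, PCDHB17 at 0.632 CPM in KO and 0.124 CPM in WT at D0 (log2 fold change 2.35, adjusted p = 2.8e-05), and PCDHB18 at 0.129 CPM in the D8 libraries labelled KO and 0.330 CPM in WT (log2 fold change -1.34, adjusted p = 0.0056). PCDHB1, left out of the whole-cell test, was at most 0.150 CPM in any whole-cell library.

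PCDHA10 (ENSG00000250120.2) was the alpha member that rose on every day. It stood at 6.79, 6.71 and 7.14 CPM in KO, against 2.39, 2.31 and 2.59 CPM in WT at D0. At D4 it stood at 13.0, 13.1 and 11.8 CPM in KO, against 5.27, 5.30 and 4.65 CPM in WT. At D8 it stood at 12.6, 14.5 and 14.9 CPM in the libraries labelled KO, against 6.14, 6.22 and 6.35 CPM in WT. The groups did not overlap on any day, and the log2 fold changes were 1.50 (SE 0.10), 1.31 (SE 0.09) and 1.17 (SE 0.09), with the highest adjusted p of the 3 at 1.6e-09. In nuclei it was at 28.8, 30.5 and 31.1 CPM in the libraries labelled KO, against 8.30, 6.70 and 7.23 CPM in WT, a log2 fold change of 2.02 (SE 0.15, adjusted p = 6.1e-13). PCDHA14, the pseudogene whose exon lies inside a PCDHA10 exon, averaged 2.28 CPM in KO and 0.784 CPM in WT at D0 and 4.81 CPM in KO and 2.05 CPM in WT at D4, and was called on both days, with log2 fold changes of 1.55 and 1.22. At D8 it averaged 2.44 CPM in the libraries labelled KO and 2.39 CPM in WT and was not called (log2 fold change 0.03, 95% interval -0.27 to 0.33), and the sign of that value changed with the scaling. In nuclei PCDHA14 averaged 9.09 CPM in the libraries labelled KO and 3.43 CPM in WT (log2 fold change 1.41, SE 0.20, adjusted p = 5.3e-07).

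PCDHA11 (ENSG00000249158.2), the next coding gene along the locus after PCDHA10, went the other way from D4. It stood at 3.14, 2.66 and 3.37 CPM in KO, against 3.13, 2.78 and 2.83 CPM in WT at D0, with overlapping groups (log2 fold change 0.07, 95% interval -0.26 to 0.40). At D4 it stood at 0.602, 0.484 and 0.349 CPM in KO, against 3.99, 3.16 and 2.78 CPM in WT, and it fell by 2.77 on the log2 scale (SE 0.21, adjusted p = 4e-09). At D8 it stood at 0.479, 0.302 and 0.287 CPM in the libraries labelled KO, against 1.72, 1.51 and 1.91 CPM in WT (log2 fold change -2.26, SE 0.22, adjusted p = 2.2e-08). In nuclei it averaged 4.0 CPM in the libraries labelled KO and 3.50 CPM in WT and was not called (log2 fold change 0.20, 95% interval -0.27 to 0.67, and -0.24 by total counts). PCDHA4, which has the highest mean count of the alpha members in whole cells, stood at 6.62, 7.14 and 7.65 CPM in KO, against 4.83, 5.50 and 5.29 CPM in WT at D0 (log2 fold change 0.46, adjusted p = 0.0005). It averaged 8.69 CPM in KO and 12.2 CPM in WT at D4 and 8.36 CPM in the libraries labelled KO and 11 CPM in WT at D8, with log2 fold changes of -0.49 and -0.40, both called, and no overlap between the groups. PCDHA1 stood at 1.43, 1.36 and 1.69 CPM in KO, against 0.444, 0.621 and 1.01 CPM in WT at D0 (log2 fold change 1.10, adjusted p = 0.0063), and averaged 0.0343 CPM in the D8 libraries labelled KO and 0.0380 CPM in WT, where a difference was not detectable at this depth (95% interval of the log2 fold change -1.76 to 1.56).

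PCDHGB4 (ENSG00000253953.1), a gamma member, rose on every day. It stood at 8.13, 7.34 and 9.04 CPM in KO, against 3.46, 3.66 and 3.73 CPM in WT at D0. At D4 it stood at 16.6, 20.8 and 18 CPM in KO, against 10.7, 10.8 and 10.2 CPM in WT. At D8 it stood at 21.4, 22.2 and 24.0 CPM in the libraries labelled KO, against 7.59, 7.52 and 6.85 CPM in WT. The groups stood apart each time, with log2 fold changes of 1.18, 0.81 and 1.62 and an adjusted p of at most 1.2e-06. In nuclei PCDHGB4 had the largest rise of all members, at 47.9, 55.0 and 48.6 CPM in the libraries labelled KO, against 8.85, 8.16 and 8.27 CPM in WT (log2 fold change 2.58, SE 0.14, adjusted p = 2.2e-15). PCDHGA8, which shares annotated exon bases with PCDHGB4, averaged 0.669 CPM in KO and 0.311 CPM in WT at D0 and was called there (log2 fold change 1.11, adjusted p = 0.005). It was not called at D4 (log2 fold change 0.53, adjusted p = 0.17) or D8 (0.51, adjusted p = 0.13). In nuclei PCDHGA8 was called higher (log2 fold change 0.82, adjusted p = 0.0045).

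PCDHGB7 (ENSG00000254122.1), the gamma member with the highest mean count, was lower in KO at D0 and higher at D8. It stood at 8.86, 6.93 and 8.44 CPM in KO, against 11.7, 10.9 and 9.97 CPM in WT at D0 (log2 fold change -0.43, adjusted p = 0.0012). At D4 it averaged 36.0 CPM in KO and 31.2 CPM in WT and was not called (log2 fold change 0.20, adjusted p = 0.089), though it was called by total counts (0.28, adjusted p = 0.021) and with only the groups compared in the fit (0.21, adjusted p = 0.023). At D8 it stood at 36.7, 34.6 and 35.2 CPM in the libraries labelled KO, against 24.3, 21.5 and 20.1 CPM in WT (log2 fold change 0.69, adjusted p = 8.7e-07). In nuclei it averaged 34.8 CPM in the libraries labelled KO and 9.87 CPM in WT (log2 fold change 1.82, adjusted p = 4.8e-12). PCDHGB6, another of the abundant gamma members at D8, was at 22.0 CPM in the libraries labelled KO and 21.8 CPM in WT (log2 fold change 0.02, 95% interval -0.13 to 0.17).

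A set of gamma members was almost lost at D8 in whole-cell RNA of the libraries labelled KO. PCDHGC3 (ENSG00000240184.2), a C-type gamma gene, stood at 0.510, 0.417 and 0.692 CPM in the libraries labelled KO, against 17.3, 14.1 and 13.4 CPM in WT, which are 33, 29 and 41 counts against 1388, 1115 and 1315. It fell by 4.80 on the log2 scale (SE 0.14, adjusted p = 4.2e-16). PCDHGA10 stood at 0.402, 0.403 and 0.304 CPM in the libraries labelled KO, against 7.72, 8.20 and 7.49 CPM in WT, and fell by 4.38 (SE 0.14, adjusted p = 1.5e-15). PCDHGA7 stood at 0.0773, 0.0144 and 0.0338 CPM in the libraries labelled KO, or 5, 1 and 2 counts, against 2.03, 1.91 and 1.93 CPM in WT, or 163, 151 and 189 counts. Its log2 fold change was -5.50 (SE 0.31, adjusted p = 1.2e-11), the lowest of all members. PCDHGA3 met the rule for values per library in nuclei but not here, where its mean was under 1 CPM, and was added here after its values were seen. It had 4, 5 and 5 counts in the libraries labelled KO and 96, 83 and 90 in WT (log2 fold change -3.82, SE 0.28, adjusted p = 4.1e-10). Each of these groups stood far apart. Of the other 13 gamma members between PCDHGA3 and PCDHGC3 on the locus, 5 were lower as well, 2 were higher and 6 were not called. The 5 lower ones were PCDHGA5, PCDHGB3, PCDHGA9, PCDHGA11 and PCDHGA12, with smaller log2 fold changes of -1.08, -1.23, -1.13, -1.68 and -1.22. The first of these, PCDHGA5, averaged 0.168 CPM in the libraries labelled KO and 0.353 CPM in WT. PCDHGB4 and PCDHGB7 were the 2 higher ones, and the abundant PCDHGB6 was among those not called.

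At earlier days these same 4 genes did not move as a group. PCDHGC3 was already lower in KO, at 12.2, 11.2 and 11.9 CPM in KO, against 19.2, 17.5 and 17.0 CPM in WT at D0 (log2 fold change -0.61, adjusted p = 7e-05), and at 7.30, 6.95 and 7.72 CPM in KO, against 20.2, 18.6 and 20 CPM in WT at D4 (log2 fold change -1.42, adjusted p = 3.1e-09). PCDHGA10 was higher in KO, at 5.09, 4.72 and 5.06 CPM in KO, against 2.83, 2.74 and 3.15 CPM in WT at D0 (log2 fold change 0.77, adjusted p = 1.5e-05), and at 17.4 CPM in KO and 12.1 CPM in WT on average at D4 (log2 fold change 0.53, adjusted p = 0.0003). PCDHGA7 averaged 0.164 CPM in KO and 0.289 CPM in WT at D0 and was not called (log2 fold change -0.84, adjusted p = 0.056, or 0.016 without WT replicate 2); at D4 it averaged 0.516 CPM in KO and 1.61 CPM in WT and fell (log2 fold change -1.65, adjusted p = 8.3e-06). PCDHGA3 averaged 1.15 CPM in KO and 0.241 CPM in WT at D0 (log2 fold change 2.26, adjusted p = 2.4e-07), and 1.25 CPM in KO and 1.01 CPM in WT at D4, where it was not called (log2 fold change 0.30, adjusted p = 0.27).

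PCDHGA11 followed a course of its own. It stood at 4.16, 3.93 and 4.35 CPM in KO, against 1.94, 2.53 and 1.81 CPM in WT at D0, and at 7.92, 9.80 and 10.0 CPM in KO, against 2.98, 2.35 and 1.92 CPM in WT at D4. At D8 it stood at 0.417, 0.230 and 0.338 CPM in the libraries labelled KO, against 0.936, 1.14 and 1.06 CPM in WT. The log2 fold changes were 0.99, 1.92 and -1.68, and each was called, with an adjusted p of at most 7.3e-05.

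**Figure D4:**
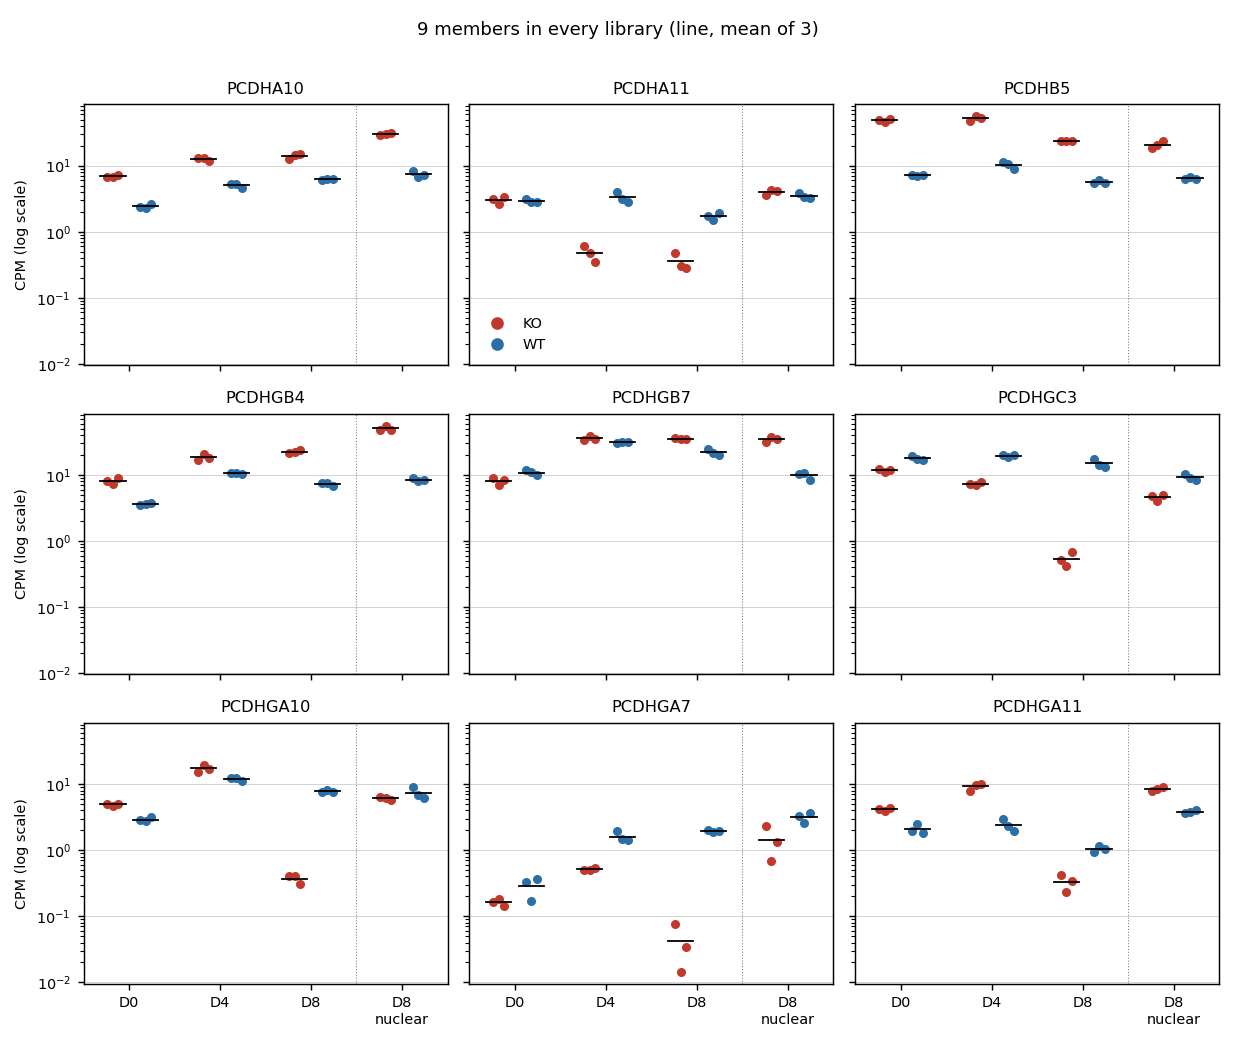
CPM of 9 members (y axis, log scale) in each library at D0, D4 and D8 in whole cells and in D8 nuclei (x axis), KO in red to the left of WT in blue, with a line at the mean of 3. PCDHB5, PCDHA10 and PCDHGB4 lie higher in KO in every pair, and PCDHGC3, PCDHGA10 and PCDHGA7 drop below 0.700 CPM in the D8 whole-cell libraries labelled KO.

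In nuclear RNA the fold changes of the same genes were smaller. PCDHGC3 stood at 4.84, 4.06 and 4.99 CPM in the libraries labelled KO, against 10.3, 9.01 and 8.47 CPM in WT (log2 fold change -1.0, SE 0.19, adjusted p = 4.6e-05). PCDHGA7 stood at 2.31, 0.690 and 1.32 CPM in the libraries labelled KO, against 3.32, 2.56 and 3.62 CPM in WT (log2 fold change -1.19, adjusted p = 0.0035). PCDHGA3 stood at 1.65, 0.518 and 1.41 CPM in the libraries labelled KO, against 3.10, 2.92 and 2.38 CPM in WT (log2 fold change -1.26, adjusted p = 0.0029). PCDHGA10 averaged 6.18 CPM in the libraries labelled KO and 7.36 CPM in WT and was not called (log2 fold change -0.25, 95% interval -0.63 to 0.13); by total counts it was called lower (-0.68, adjusted p = 0.016). PCDHGA11, lower in whole cells, was higher in nuclei, at 7.92, 8.54 and 8.95 CPM in the libraries labelled KO, against 3.65, 3.78 and 4.13 CPM in WT (log2 fold change 1.13, SE 0.20, adjusted p = 1.5e-05). The nuclear table has a higher background. In it 7651 genes were tested that averaged under 0.1 CPM in D8 whole cells in both genotypes. Their median nuclear mean was 1.33 CPM in the libraries labelled KO and 2.08 CPM in WT. Their median nuclear log2 fold change was -0.8. The neural gene NEUROD1, at 0 CPM in every D8 whole-cell library labelled KO and 0.0221 CPM on average in WT, averaged 2.22 CPM in nuclei labelled KO and 2.60 CPM in WT nuclei. In the nuclei labelled KO, PCDHGA7 averaged 1.44 CPM and PCDHGA3 1.19 CPM. Both lay near or below that median, and a larger loss of these 2 genes was not detectable at such a background. The tables were normalised apart, and the difference between whole-cell and nuclear fold changes was not tested.

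Of the members called both in D8 whole cells and in D8 nuclei, 20 in number, 13 had the same direction and 7 the opposite one, or 65% and 35%. Of the 8231 genes called in both, 68.4% had the same direction and 31.6% the opposite one. Opposite were PCDHA4, PCDHA12, PCDHAC1, PCDHB3, PCDHB15, PCDHGA9 and PCDHGA11, all lower in whole cells and higher in nuclei in the libraries labelled KO. Most opposite genes overall leaned that way too, with 1894 lower in whole cells and higher in nuclei and 711 the reverse. Scaled by total counts, 17 members were called in both, 14 in the same direction (82.4%) and 3 in the opposite one. Of the 7179 genes called in both under that scaling, 65% had the same direction and 35% the opposite one. The nuclear calls of PCDHA4 (log2 fold change 0.22, adjusted p = 0.26) and PCDHAC1 (0.22, adjusted p = 0.31) were among those lost. Between D0 and D8, 15 members were called on both days, 7 in the same direction (46.7%) and 8 in the opposite one; of the 5474 genes called on both days 58.3% had the same direction. Called in 1 direction at D0, D4 and D8 alike were 5 members (9.26%), and 3.45% of all genes. PCDHA10, PCDHB5, PCDHB12 and PCDHGB4 were higher in KO and PCDHGC3 was lower.

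The C-type members differed from each other. PCDHAC1 stood at 5.17, 4.22 and 4.41 CPM in KO, against 6.31, 5.18 and 6.49 CPM in WT at D0 (log2 fold change -0.39, adjusted p = 0.035). That call was lost without WT replicate 1 or 3 or KO replicate 2 or 3, with an adjusted p of 0.11 to 0.13. PCDHAC1 stood at 1.37 CPM in KO and 1.39 CPM in WT at D4, where it was not called, and at 1.53, 1.38 and 1.45 CPM in the libraries labelled KO, against 2.15, 2.07 and 2.87 CPM in WT at D8 (log2 fold change -0.70, adjusted p = 0.00075). PCDHAC2 averaged 10.5 CPM in KO and 10.3 CPM in WT at D0 (95% interval of the log2 fold change -0.22 to 0.28) and 1.07 CPM in KO and 1.03 CPM in WT at D4 (-0.32 to 0.42), and rose at D8 to 1.61, 2.06 and 2.53 CPM in the libraries labelled KO, against 1.32, 1.33 and 1.31 CPM in WT (log2 fold change 0.64, adjusted p = 0.0013). In nuclei both were higher in the libraries labelled KO, PCDHAC1 at 13.6 CPM in those and 8.59 CPM in WT (log2 fold change 0.67) and PCDHAC2 at 20.6 CPM in those and 10.5 CPM in WT (log2 fold change 0.97). PCDHGC4 stood at 2.64, 2.66 and 2.16 CPM in the D8 libraries labelled KO, against 1.20, 0.951 and 0.654 CPM in WT (log2 fold change 1.43, adjusted p = 1.8e-06), so at D8 it moved opposite to PCDHGC3, the gene just before it on the locus. It averaged 4.40 CPM in KO and 4.86 CPM in WT at D0 and 9.07 CPM in KO and 7.22 CPM in WT at D4, and was called on neither day, though at D4 it was called with only the groups compared in the fit (log2 fold change 0.34, adjusted p = 0.021). PCDHGC5 was called in none of the 4 comparisons, with log2 fold changes between -0.01 and 0.27.

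**Figure D5:**
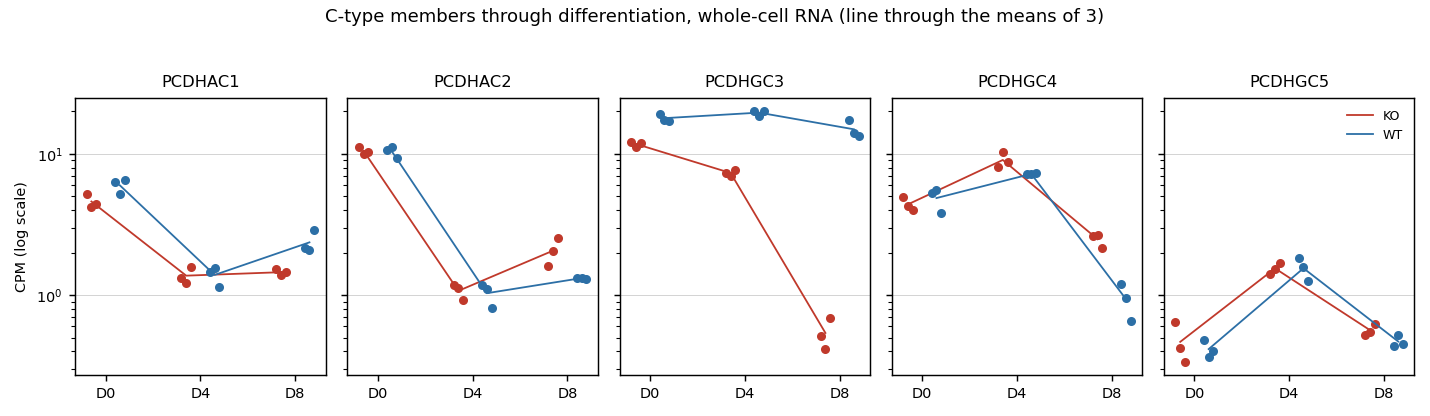
CPM of the 5 C-type members (y axis, log scale) at D0, D4 and D8 (x axis) in each whole-cell library, KO in red and WT in blue, with lines through the means of 3. PCDHAC2 drops to 1.07 CPM in KO and 1.03 CPM in WT at D4 alike, and the lines of PCDHGC3 part, with 0.540 CPM in the D8 libraries labelled KO and 15 CPM in WT.

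Most members changed with differentiation in both genotypes, as most genes did, and the share called was near that of all genes. From D0 to D4, 43 of 54 members rose and 3 fell in WT, where 81% of all genes were called, 42% higher and 39.1% lower. That is 85.2% of the members in WT. In KO 35 rose and 9 fell, or 81.5%, where 82.6% of all genes were called, 44.1% higher and 38.5% lower. The median log2 fold change of the members over this step was 0.82 in KO and 1.22 in WT, and that of all genes 0.12 in KO and 0.08 in WT. Of 17 beta members 12 rose in KO and 16 in WT, of 21 gamma members 13 rose in KO and 17 in WT, and of 16 alpha members 10 rose in each genotype. PCDHB6 had the largest rise, with 3.03 CPM in KO and 1.60 CPM in WT at D4, against 0.165 CPM in KO and 0.101 CPM in WT at D0, a log2 fold change of 4.20 in KO and 3.95 in WT. PCDHAC2 fell most in both genotypes, by 3.29 on the log2 scale in KO and 3.31 in WT, followed in WT by PCDHAC1, which fell by 1.74 in KO and 2.10 in WT. PCDHA11 differed between the genotypes: it fell by 2.65 in KO (adjusted p = 1.8e-10) and was not called in WT (log2 fold change 0.19, adjusted p = 0.30).

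From D4 to D8 the direction turned. In the libraries labelled KO 34 members fell and 6 rose, or 74.1%, where 75% of all genes were called, 38.9% lower and 36.1% higher. In WT 27 fell and 5 rose, or 59.3%, where 68.8% of all genes were called, 33.8% lower and 35% higher. Gamma members made up much of the fall, with 16 of 21 lower in each genotype. In the libraries labelled KO the largest falls were PCDHGA10, by 5.54 on the log2 scale, PCDHGA11, by 4.81, PCDHGA3, by 4.07, and PCDHGC3, by 3.77. In WT these 4 had log2 fold changes of -0.63, -1.21, 0.06 and -0.39 over the same step, and the largest fall there was that of PCDHGC4, by 2.96. PCDHGB6 rose in both, by 0.50 in the libraries labelled KO and 0.65 in WT, and PCDHGB4 rose by 0.29 in the libraries labelled KO and fell by 0.53 in WT.

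Whether the KO effect itself differed between days was tested as an interaction. Between D0 and D4 it differed for 16 of 54 members (29.6%), with 39.1% of all genes called (20% more positive at D4, 19.1% more negative), and between D4 and D8 for 18 (33.3%), with 41.5% of all genes called (19.6% more positive at D8, 21.9% more negative). At the second step the effect was more negative at D8 for 15 members and more positive for 3, PCDHGB4, PCDHGB7 and PCDHGC4. Scaled by total counts, 2 were more positive and 25 more negative. Of all genes 43.4% were then called, and 24.9% of these were more positive, against 47.2% with TMM. The median over all genes was -0.24. With that scaling the effect on PCDHGB7 was no longer called (adjusted p = 0.064). The largest differences were those of PCDHGA10 (-4.91, SE 0.17, adjusted p = 3.1e-14), PCDHGA3 (-4.13, SE 0.35, adjusted p = 1.2e-08), PCDHGA7 (-3.85, SE 0.44, adjusted p = 7.8e-07), PCDHGA11 (-3.60, SE 0.28, adjusted p = 3.8e-09) and PCDHGC3 (-3.38, SE 0.18, adjusted p = 1.7e-11). At the first step 12 members had a more negative effect at D4 and 4 a more positive one, or 9 and 5 when scaled by total counts, where 62.9% of all genes called were more positive, against 51.1% with TMM. The effect on PCDHA11 became more negative by 2.84 over this step (SE 0.27, adjusted p = 1.1e-07). PCDHA10 and PCDHB12 were called in neither interaction, while the rise of PCDHB5 was smaller at D4 than at D0 by 0.44 on the log2 scale (adjusted p = 0.0057) and was not called as different between D4 and D8 (-0.28, adjusted p = 0.066). Scaled by total counts, the rises of PCDHA10 (adjusted p = 0.024) and PCDHB5 (adjusted p = 0.0014) were called as smaller at D8 than at D4.

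The constant exons offered a readout that does not depend on which variable exon was used. In the authors' deposited skipped-exon tables, the second constant exon of 89 bases was listed under PCDHGC3 (hg19, chr5:140884960-140885048, plus strand) at D0, D4 and D8 and the corresponding alpha exon under PCDHA13 (hg19, chr5:140362060-140362148, plus strand) at D0 and D4. These tables compare a first and a second arm of 3 libraries without naming them, so only the arms can be compared. In the authors' deposited tables inclusion of these exons was at least 0.991 in both arms, the FDR was 1 in each case, and none of the 5 listed events was called, with 2.37% of events called at D0, 1.1% at D4 and 2.23% at D8. No event of a member was listed for 293T cells. Scaled to 1000000 junction reads of the table, inclusion reads of the gamma exon averaged 3.69 (second arm) and 3.65 (first arm) at D0, 44.1 (second) and 43.7 (first) at D4, and 16.3 (second) and 17.3 (first) at D8. At D8 the 3 libraries of the second arm ran from 15.5 to 16.8 and those of the first from 15.7 to 18.7. Those of the alpha exon averaged 2.32 (second arm) and 2.06 (first arm) at D0, and 8.66 (second) and 9.36 (first) at D4. The tables list different numbers of events, 92139 at D0, 69923 at D4 and 92068 at D8. Values scaled to their totals therefore cannot be compared between days. Reads of the gamma exon overlapped between the arms at D0, D4 and D8 and those of the alpha exon at D0 and D4. At D8 this was so for the gamma exon while PCDHGC3, PCDHGA10 and PCDHGA7 were lower by over 4 on the log2 scale and PCDHGB4 and PCDHGB7 were higher in the libraries labelled KO.

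Genes known to act on the locus were counted from a list of 23 that holds CTCF, cohesin and its loaders, and DNA and histone methylation factors, of which 22 were tested. At D0, 9 were higher in KO and 5 lower, where 42.3% of all genes were called. At D4, 0 were higher and 11 lower, where 28.4% were called. At D8 the libraries labelled KO had 3 higher and 10 lower, where 55.6% were called. By total counts these were 8 and 5, 1 and 5, and 0 and 12. DNMT3B, a DNA methyltransferase, averaged 2090 ± 129 CPM in KO and 1020 ± 69.6 CPM in WT at D0 (log2 fold change 1.03, adjusted p = 1.1e-08), 258 ± 4.56 CPM in KO and 423 ± 49.4 CPM in WT at D4 (log2 fold change -0.71) and 47.1 ± 2.71 CPM in the libraries labelled KO and 71.0 ± 8.00 CPM in WT at D8 (log2 fold change -0.59). SMCHD1, which silences clustered protocadherin genes in mouse, was lower on each day, with log2 fold changes of -0.27, -0.25 and -0.36 and an adjusted p of at most 0.0058. CTCF differed little, with log2 fold changes of 0.10 (not called), -0.17 and -0.17. In nuclei the libraries labelled KO had 19 of the 22 higher and 2 lower, where 64% of all genes were called, at a median log2 fold change of 1.01 in the list and -0.27 over all genes. By total counts 18 were higher and 3 lower in nuclei, at a median of 0.57 in the list and -0.71 over all genes.

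The shares of all genes called, 42.3% at D0, 28.4% at D4 and 55.6% at D8, are the background of the next counts as well. Among 12 protocadherins outside the clusters, 4 were higher and 1 lower in KO at D0, 6 higher and 3 lower at D4, and 5 higher and 5 lower at D8. PCDH11X fell by 5.26 on the log2 scale in the D8 libraries labelled KO and PCDH19 by 3.37. For PCDHGA3, PCDHGA10, PCDHGC3 and PCDHGA7 the log2 fold changes there ran from -3.82 to -5.50. PCDH7 rose on each day, with log2 fold changes of 0.62, 0.91 and 0.94. Of 16 genes beside or inside the locus, 15 were tested; KO had 5 of these higher and 0 lower at D0, 1 higher and 3 lower at D4, and 5 higher and 5 lower at D8. TAF7, which lies between the beta and gamma genes, had log2 fold changes of 0.05, -0.03 and 0.19 on the 3 days, the last of which was called. Of 10 partners and proteases of the proteins, such as PTK2B, ADAM10 and WASF1, 1 was higher and 3 lower at D0, 4 higher and 1 lower at D4, and 4 higher and 2 lower at D8; WASF1, a subunit of the WAVE complex that binds some protocadherin tails, fell by 0.71 at D8 (adjusted p = 3.3e-07).

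Cell type markers moved with the D8 whole-cell comparison too. Neural markers, of the lineage in which the family is best known, had 7 of 11 under 1 CPM at D8 in both genotypes, with sums of 32.2 to 35.2 CPM in the libraries labelled KO and 45.2 to 49.7 CPM in WT. Of 8 surface ectoderm and amnion markers all 8 were lower in the D8 libraries labelled KO, with sums of 69.6 to 85.4 CPM in those and 604 to 1100 CPM in WT. Of 8 pluripotency markers 6 were lower and 1 higher, with sums of 545 to 635 CPM in the libraries labelled KO and 1370 to 1810 CPM in WT, and of 10 cardiomyocyte markers 8 were higher and 1 lower. Of 6 endoderm markers 5 were higher and 1 lower, with sums of 280 to 422 CPM in the libraries labelled KO and 135 to 211 CPM in WT. Of 5 endothelial markers tested 3 were higher and 0 lower, with sums of 628 to 686 CPM in the libraries labelled KO and 294 to 352 CPM in WT, and of 7 fibroblast and epicardium markers 2 were higher and 0 lower, with sums of 755 to 926 CPM in the libraries labelled KO and 401 to 471 CPM in WT. Of the 8 neural markers tested 1 was higher and 3 were lower. In bulk RNA fewer cells of a type and less RNA per cell cannot be told apart, and the part of cell type in the differences of the members was not tested in any of the 4 comparisons.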

How the data were processed

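Gene-level counts were deposited for 18 whole-cell and 6 nuclear libraries in 2 tables. Per the submitters' processing notes the tools were UMI-tools, cutadapt, STAR, featureCounts and DESeq, on build hg19. No source used here states versions, the strand setting or the handling of reads shared between genes. The skipped-exon tables hold junction read counts, inclusion levels as a fraction, p-values with an FDR, and the difference of inclusion levels between the arms, a score from -1 to 1, per the file headers.

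Counts were analysed in R 4.3.3 with edgeR 4.0.16 (limma 3.58.1): filterByExpr, TMM scaling, and the quasi-likelihood test with Benjamini-Hochberg adjustment over all genes tested, called under 0.05. All 18 whole-cell libraries were in 1 fit (21761 genes) and the 6 nuclear ones in another (30481 genes), each gene with 1 mean per group. CPM are over TMM-scaled totals, and intervals are 95%. The code was tested on simulated data with known changes. Tables were joined with Python 3.11.15 and pandas 2.3.3.

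A skipped exon was called where the authors' deposited FDR was under 0.05, inclusion differed by 0.1 or more, and both arms averaged 10 or more junction reads. Alternatives were DESeq2 1.42.0, total counts in place of TMM, no filter on low counts, a replicate block, only the groups compared, and each library left out. The nuclear background was read from genes under 0.1 CPM in whole cells, a limit set after seeing the data. Counting depth limits the precision of members with few counts.

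The members and lists were chosen with earlier results of these data known. Values per library are given for the C-type members, for up to 6 other members per comparison of KO with WT with the largest called change, no overlap between groups and a mean of at least 1 CPM, and for the member of each cluster with the highest mean. PCDHA12, PCDHB1, PCDHB2, PCDHB3, PCDHB6, PCDHB12, PCDHB15, PCDHB17, PCDHB18, PCDHGA1, PCDHGA2, PCDHGA5, PCDHGA8, PCDHGA9, PCDHGA12, PCDHGB3 and PCDHGB6 fall outside that rule and were chosen after their values were seen. Promoter sequences are from RefSeq.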

Additional observations from a re-analysis of the deposited data

Results flagged for a closer look

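For 8 of the members described by library, the KO effect (log2 fold change of KO over WT) differed between D0 and D4 by edgeR's test of the interaction, adjusted over all genes. The effect was more negative at D4 for PCDHA11 (-2.84, adjusted p = 1.1e-07), PCDHGA3 (-1.96, adjusted p = 4.5e-05), PCDHA4 (-0.95, adjusted p = 7.1e-06), PCDHGC3 (-0.82, adjusted p = 0.00016), PCDHB5 (-0.44, adjusted p = 0.0057) and PCDHGB4 (-0.37, adjusted p = 0.04). It was more positive for PCDHGA11 (0.93, adjusted p = 0.0033) and PCDHGB7 (0.63, adjusted p = 0.00059). The call of PCDHGB4 was lost with total counts (adjusted p = 0.1), without the filter (0.087), and without WT replicate 1 or 2 or KO replicate 1 or 3 of either D0 or D4 (0.058 to 0.12).

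Between D4 and D8 the effect differed for 10 of them. It was more negative at D8 for PCDHGA10 (-4.91), PCDHGA3 (-4.13), PCDHGA7 (-3.85), PCDHGA11 (-3.60), PCDHGC3 (-3.38), PCDHA14 (-1.19) and PCDHAC1 (-0.68), with edgeR adjusted p-values from 3.1e-14 to 0.029. It was more positive for PCDHGC4 (1.10, adjusted p = 0.0011), PCDHGB4 (0.82, adjusted p = 4.4e-05) and PCDHGB7 (0.49, adjusted p = 0.0029). The call of PCDHAC1 was lost without D4 WT replicate 3, D4 KO replicate 3, D8 WT replicate 4 or D8 KO replicate 2 (adjusted p = 0.064 to 0.096). The CHIR dose differed between the genotypes from D4 on, and its part in these differences cannot be told apart from that of the genotype.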

How the results depend on the processing

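Counts of called members stayed within 1.5 times under every alternative run. Leaving out 1 library gave 22 to 26 called members (D0), 14 to 17 (D4), 27 to 36 (D8) and 24 to 33 (nuclei). Of 1307 alternative values for named members, 1228 kept direction and side of the threshold, 22 lost the call, 19 gained it and 38 changed sign, and none of these 38 had been called. Replicate numbers did not pair the libraries (correlations of same-numbered libraries -0.17 to 0.14); with the replicate block the called members numbered 26 (D0), 16 (D4), 29 (D8) and 28 (nuclei). The call of PCDHGB4 between D0 and D4 was lost with the block (adjusted p = 0.05 after rounding).

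By total counts the sign changed at D4 for PCDHAC1 (0.05) and PCDHGC5 (0.06), at D8 for PCDHA14 (-0.10), in nuclei for PCDHA11 (-0.24), PCDHGC4 (-0.06) and PCDHGC5 (-0.40), and for the change of the PCDHA4 effect between D4 and D8 (-0.11). PCDHA14 at D8 was -0.19 with the replicate block and -0.01 with only the groups compared, and the change of the PCDHAC2 effect between D0 and D4 was -0.02 with DESeq2. Cluster log2 ratios by total counts were -0.07 for alpha, 0.35 for beta and -0.07 for gamma at D8, and 0.44, 0.30 and 0.34 in nuclei. In alternatives chosen after seeing the data, alpha without PCDHA10 and PCDHA14 was 0.16 (D0), -0.21 (D4), -0.34 (D8) and 0.65 (nuclei), beta without PCDHB5 was 0.41, 0.28, 0.16 and 0.63, and gamma without PCDHGB4 and PCDHGB7 was 0.05 at D4, -0.87 at D8 and 0.04 in nuclei.

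With 1 library left out, ranges that cross 0 were, at D0, -0.01 to 0.16 for PCDHA11, -0.04 to 0.08 for PCDHAC2 and -0.13 to 0.35 for PCDHGC5; at D4, -0.04 to 0.80 for PCDHA1, -0.14 to 0.06 for PCDHAC1, -0.09 to 0.16 for PCDHAC2 and -0.14 to 0.12 for PCDHGC5. At D8 they were -1.17 to 0.41 for PCDHA1 and -0.08 to 0.16 for PCDHA14, and in nuclei -0.08 to 0.13 for PCDHGC5. Changes of the KO effect ran from -0.11 to 0.13 for PCDHAC2 and -0.36 to 0.12 for PCDHGC5 between D0 and D4, and from -1.56 to 0.01 for PCDHA1 between D4 and D8.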
